A study of Drosophila melanogaster with 6 samples.

Results

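The pseudouridylation guide snoRNAs of Drosophila melanogaster are the small nucleolar RNAs whose dm6 symbol starts with snoRNA:Psi. They were taken by symbol alone, and 106 of the 17612 genes in the deposited count table met this rule. The symbols name 18S rRNA as the target of 46 guides and 28S rRNA as the target of 60. Box H/ACA snoRNAs, the class to which these guides belong, fold into hairpins whose internal loops pair with the RNA on both sides of a target uridine. A protein core, which in the fly holds Nop60B (the pseudouridine synthase, called dyskerin in humans), NHP2, Nop10 and Gar1, then turns that uridine into pseudouridine. In flies most of these guides lie in introns, and they are released after splicing of the host transcript.

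The study used RIP-seq, which sequences the RNA that comes down with an immunoprecipitated protein, to look for su(Hw) mRNA and other transcripts enriched with the protein Isha. The Isha RIP group came from nuclear extract of wild-type Oregon R embryos that were 0 to 24 h old and of mixed stages, precleared on beads with preimmune rabbit serum and then bound to beads with rabbit antiserum against Isha. The input group came from the same kind of nuclear extract with no antibody, and each group had 3 libraries. Since nothing in the labels says that the 3 libraries of a group are from separate extracts, each p-value reflects only how these libraries scatter, and that scatter may be technical. No control immunoprecipitation enters the comparison. Each difference is between RNA recovered with the Isha antiserum and RNA in input, and RNA held by the beads or the serum cannot be told apart from RNA held by Isha.

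Library totals were 8386414 to 14342543 counts in Isha RIP and 29344529 to 31680173 in input. Levels are given as CPM, counts scaled to 1000000 per library after correction by TMM factors (which align the bulk of genes between libraries). Ranks of guides by level, and groups by level, use CPM per kb of exon. Lists of the guides with the highest input CPM, and minimum levels in CPM, take no account of length. A count of 0 allows up to 3 counts, which equals 0.209 to 0.358 CPM in Isha RIP libraries and 0.0947 to 0.102 CPM in those of input, counting error only. The markers of embryonic neurons (elav, nSyb), muscle (Mhc, Mef2), epidermis (grh) and trachea (trh) were present in both groups. The adult and chorion markers SP, Cp36, Cp38, Yp1, Yp2 and ninaE averaged at most 0.613 CPM in either group, and Yp3, of the same list, averaged 1.54 CPM in Isha RIP and 4.22 CPM in input.

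The guides were on balance less abundant in Isha RIP than in input. They took 1.14%, 1.17% and 1.20% of the counts of the 3 Isha RIP libraries, against 3.61%, 3.43% and 3.58% in the 3 input libraries. The share was thus 1.17 ± 0.0273% in Isha RIP and 3.54 ± 0.0985% in input (SD, n = 3 each), which is 3.02-fold lower in Isha RIP, and the groups did not overlap. The 2-sided exact permutation test over libraries gave p = 0.1, the smallest value that 3 against 3 allows (20 arrangements), so this test cannot reach 0.05 here. In extracts of whole embryos, fewer cells of a type and less RNA per cell cannot be told apart.

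A few abundant guides carried much of the difference in share, but not all of it. The 3 guides with the highest input CPM, snoRNA:Psi18S-1820, snoRNA:Psi28S-291 and snoRNA:Psi18S-1377d, held 9.21 ± 0.528% of all guide counts in Isha RIP and 44.7 ± 2.07% in input (SD, n = 3 each). Without these 3, the guides took 1.06 ± 0.0244% of counts in Isha RIP and 1.96 ± 0.104% in input, a share 1.84-fold lower in Isha RIP.

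Methylation guides, the box C/D snoRNAs with symbols starting snoRNA:Me, held 0.0617 ± 0.00103% of counts in Isha RIP and 0.0587 ± 0.00482% in input, values that overlapped between libraries. Single methylation guides did change. Of 78, 49 were tested, with 10 called higher (20.4%, where 27.0% of all tested genes were) and 9 lower (18.4%, against 30.4%). Their log2 fold changes ran from -9.28 to 2.41, and exons of 16 of the 78 overlap other genes. The ratio of pseudouridylation to methylation guide counts was 19.0 ± 0.475 in Isha RIP and 60.6 ± 3.51 in input (SD, n = 3 each). This log2 ratio differed by -1.67 (exact permutation p = 0.1, again the smallest possible). The pseudouridylation guides were also longer, with a median exon length of 140 bases against 79 for the methylation guides, and the part of length in this difference was not tested. All snoRNAs and scaRNAs outside both guide classes held 0.828 ± 0.0298% of counts in Isha RIP and 1.28 ± 0.0421% in input. The scaRNAs among them held 0.161 ± 0.0128% in Isha RIP and 0.521 ± 0.0230% in input, with 6 of 13 tested called lower and 3 higher, so a lower share was not particular to the pseudouridylation guides. Other nuclear RNAs went both ways. snRNA:7SKa was 24.5-fold lower in Isha RIP, while lncRNA:roX1, lncRNA:roX2 and lncRNA:Hsromega were called higher, with log2 fold changes of 0.78, 1.46 and 1.39. The orphan box H/ACA snoRNAs, whose symbols start with snoRNA:Or-aca or snoRNA:Or-ACA, had 5 tested genes, of which 3 were called lower in Isha RIP by edgeR, with a median log2 fold change of -1.78.

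**Figure D1:**
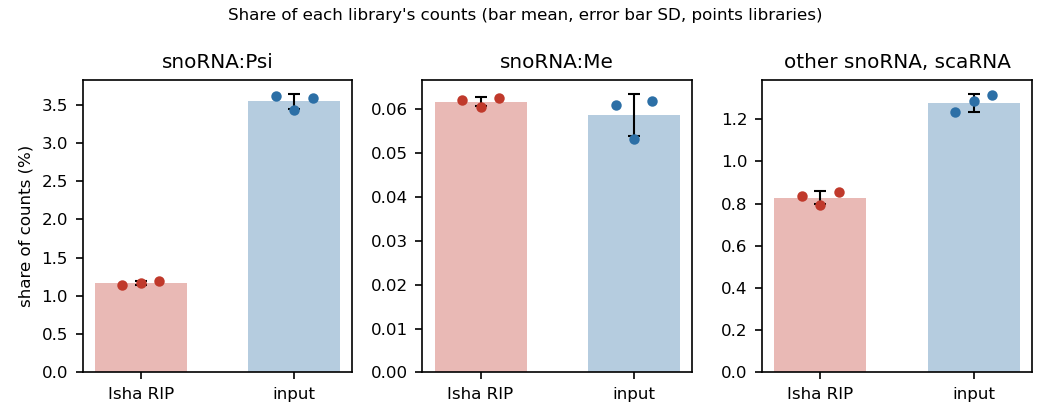
Share of each library's counts (%) held by pseudouridylation guides, methylation guides and all other snoRNAs and scaRNAs in Isha RIP and input; bars are means, error bars SD, points the 3 libraries, and each panel has its own vertical scale. Pseudouridylation guides held 1.17% in Isha RIP and 3.54% in input, and the methylation guides' libraries overlapped.

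Gene by gene, 104 of the 106 guides had enough counts to be tested with edgeR's quasi-likelihood test over all 11764 tested genes, with calls at a Benjamini-Hochberg adjusted p under 0.05. Of these, 59 (56.7%) were lower in Isha RIP, where 30.4% of all tested genes were called lower. In the other direction 13 (12.5%) were higher, where 27.0% of all tested genes were, and 32 (30.8%) were not called. In either direction 57.4% of all tested genes were called. The median log2 fold change of the guides was -0.51, with quartiles of -1.58 and -0.04, and that of all tested genes was -0.05. At least a 2-fold fall was called for 39 guides (12.8% of all genes) and at least a 4-fold fall for 22 (2.59% of all genes), while 9 were called at least 2-fold higher (8.63% of all genes). The 3 Isha RIP values lay all below the 3 input values for 58 guides and all above them for 13, and overlapped for 33, where 34.0% and 30.0% of all tested genes lay below and above (64.0% in either direction).

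The 2 untested guides both belong to the Arpc2 cluster. snoRNA:Psi18S-640f had 12, 2 and 0 counts in Isha RIP and 5, 20 and 0 in input. snoRNA:Psi18S-525i had 0 counts in each Isha RIP library, at the floor given above, and 15, 6 and 4 in input. Neither gives a measurable difference at this depth.

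The largest fall was that of snoRNA:Psi18S-1820, which was also the most abundant guide per kb in input. It had 135, 131 and 144 CPM in Isha RIP, against 8571, 8079 and 7489 CPM in input. The groups were far apart, with a log2 fold change of -5.88 ± 0.047 (SE), 58.8-fold lower in Isha RIP (edgeR adjusted p = 1.12e-28). This guide lies at chromosome 2R, 24176228 to 24176367 on the plus strand, in intron 4 of Nop60B, the gene of the pseudouridine synthase itself.

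snoRNA:Psi28S-291, in intron 4 of the ribosomal protein gene RpL3 (chromosome 3R, 11223571 to 11223790, plus strand), had 185, 168 and 210.4 CPM in Isha RIP, against 5951, 5643 and 5432 CPM in input. Every Isha RIP library was below every input library, and the fall was 30.1-fold (log2 fold change -4.91 ± 0.058, edgeR adjusted p = 1.95e-25). snoRNA:Psi18S-996, in intron 2 of Tudor-SN, had 89.3, 76.1 and 101 CPM in Isha RIP and 1055, 959 and 1099 CPM in input, a log2 fold change of -3.53. snoRNA:Psi28S-2622, which no annotated gene encloses, had 155, 163 and 184 CPM in Isha RIP and 1751, 1565 and 1796 CPM in input, a log2 fold change of -3.34. In both, all Isha RIP libraries were below all input libraries.

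Among the 10 guides with the highest input CPM, smaller falls were also called. snoRNA:Psi18S-1377d in RpS7 had 750.2, 699 and 785 CPM in Isha RIP, against 2335, 2070.2 and 2334 CPM in input, a log2 fold change of -1.59. snoRNA:Psi28S-1175c in RpS16 had 141, 149.6 and 173 CPM in Isha RIP, against 1522, 1284 and 1273 CPM in input, a log2 fold change of -3.13. Neither overlapped between groups. The log2 fold changes of snoRNA:Psi18S-1086 in Sf3b3 and of snoRNA:Psi28S-3342, which has no enclosing gene, were -2.87 and -1.28, also without overlap.

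Large falls were also called for guides below the 10 highest in input CPM. snoRNA:Psi18S-1397, in intron 6 of CG10576, had 0.340, 0.947 and 2.01 CPM in Isha RIP and 26.1, 22.1 and 21.4 CPM in input. Its log2 fold change was -4.25 ± 0.323 and rested on 3, 8 and 29 Isha RIP counts, so its size is less certain than its direction. snoRNA:Psi18S-1377c in RpS7 had 9.41, 11.1 and 13.1 CPM in Isha RIP against 176, 181 and 192 CPM in input, a log2 fold change of -4.00 with no overlap. The other guides among the 10 largest falls, snoRNA:Psi28S-2626, snoRNA:Psi28S-1135a and snoRNA:Psi28S-3405d, had log2 fold changes of -3.43, -3.40 and -3.05.

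Guides that were higher in Isha RIP were fewer, and the most abundant of them were copies of sites whose other copies fell or were not called. snoRNA:Psi28S-1192b, at chromosome X, 17144283 to 17144420 on the minus strand in intron 4 of RpS5a, had 253, 261 and 236 CPM in Isha RIP, against 69.3, 75.2 and 76.7 CPM in input. The groups did not overlap, and it was 3.39-fold higher in Isha RIP (log2 fold change 1.76 ± 0.068, edgeR adjusted p = 5.35e-16). snoRNA:Psi18S-841d, at chromosome 2R, 21330906 to 21331043 on the plus strand in intron 8 of dom, had 1285, 1628 and 1334 CPM in Isha RIP, against 677, 575 and 732 CPM in input. It was 2.14-fold higher in Isha RIP without overlap (log2 fold change 1.10 ± 0.073, edgeR adjusted p = 1.00e-11).

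snoRNA:Psi18S-525b in Arpc2 had 88.5, 95.1 and 73.3 CPM in Isha RIP and 44.9, 33.0 and 30.4 CPM in input, a log2 fold change of 1.24. snoRNA:Psi18S-301, which no annotated gene encloses, had 80.6, 69.2 and 78.9 CPM in Isha RIP and 48.5, 41.2 and 40.7 CPM in input, a log2 fold change of 0.81. In both, all Isha RIP libraries were above all input libraries. The remaining rises among guides with a mean of at least 10 CPM were snoRNA:Psi18S-640a (1.63), snoRNA:Psi18S-1854a (1.03), snoRNA:Psi18S-1854b (1.00), snoRNA:Psi28S-2996 (0.53), snoRNA:Psi18S-1377a (0.43) and snoRNA:Psi28S-3305c (0.42), each given as a log2 fold change. The last of these overlapped between groups, with 208, 229 and 237 CPM in Isha RIP and 133, 135 and 234 CPM in input. The call for snoRNA:Psi28S-3305c was lost without Isha RIP replicate 3 or input replicate 1 or 2 (edgeR adjusted p = 0.0615, 0.0862 and 0.0877), and that for snoRNA:Psi28S-2996 without Isha RIP replicate 1 or 2 or input replicate 1 or 2 (0.0845, 0.126, 0.167 and 0.0508). With DESeq2 snoRNA:Psi28S-3305c lost it too (adjusted p = 0.165), and at equal depth snoRNA:Psi28S-2996 did (edgeR adjusted p = 0.201).

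Some guides with a mean of at least 10 CPM had nearly equal levels in both groups. snoRNA:Psi28S-1180 in tou had 228, 252 and 274 CPM in Isha RIP and 240.0, 233 and 273 CPM in input. snoRNA:Psi18S-1389a in dom had 274, 279 and 294 CPM in Isha RIP and 256, 273 and 329.9 CPM in input. Their log2 fold changes were 0.02 ± 0.068 and -0.02 ± 0.071, and that of snoRNA:Psi28S-3436a in RpL17 was -0.01 ± 0.204, with none called. snoRNA:Psi18S-176, among the 5 most abundant guides per kb in both groups, had 1477, 1581 and 1649 CPM in Isha RIP and 1767, 1604 and 1755 CPM in input. It was called lower at a log2 fold change of -0.12 (edgeR adjusted p = 0.0143), but its groups overlapped and the call was lost without Isha RIP replicate 1 or input replicate 1 or 3 (edgeR adjusted p = 0.0856, 0.0852 and 0.0706).

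**Figure D2:**
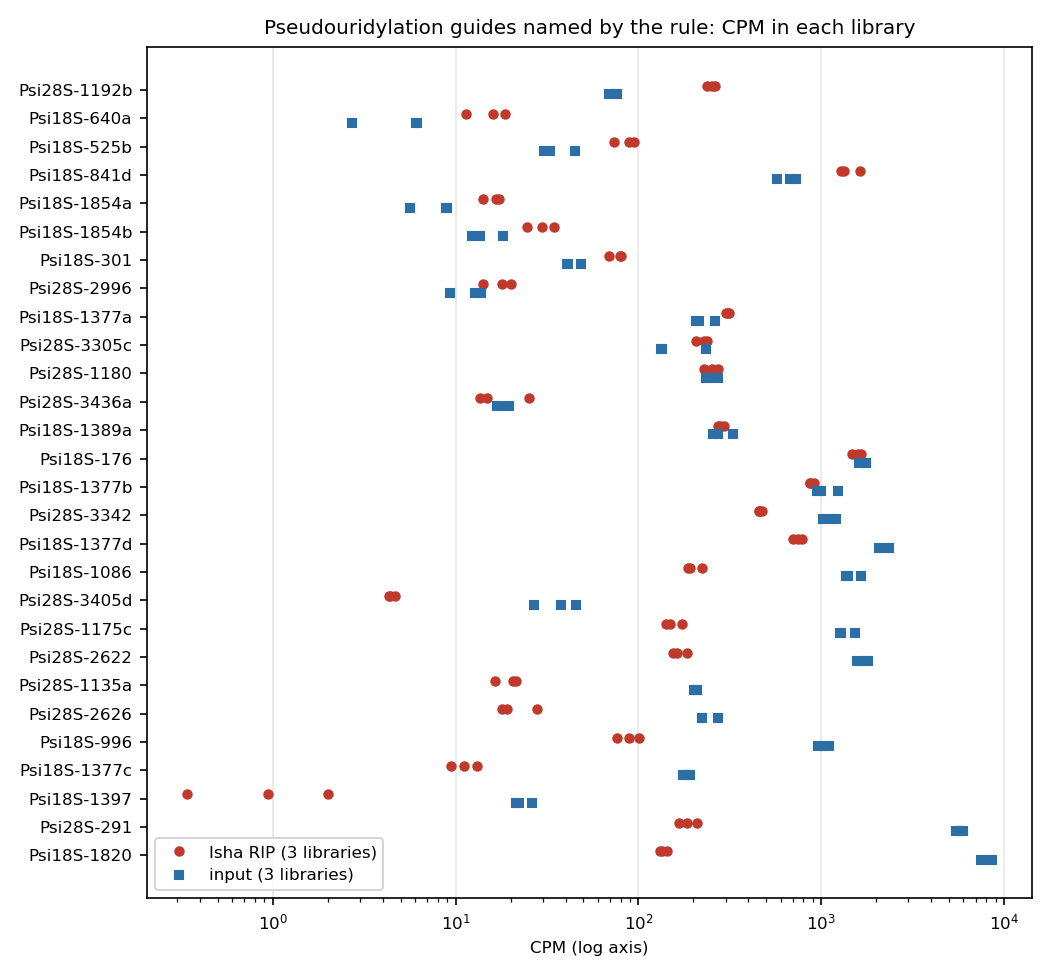
CPM (log axis) of the guides named by the rule, with the 3 Isha RIP libraries as red circles above the 3 input libraries as blue squares for each guide; rises are at the top, then the guides nearest to no change, then the falls and the most abundant guides. snoRNA:Psi18S-1820, at the bottom, lies at 131 to 144 CPM in Isha RIP and 7489 to 8571 CPM in input.

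The order of the guides by level therefore differed between the groups. In Isha RIP the most abundant guides were snoRNA:Psi18S-841d at 10260.2 CPM per kb and snoRNA:Psi18S-176 at 10188 CPM per kb, which differed by less than the spread of the first, followed by snoRNA:Psi18S-1377b at 6416 CPM per kb. In input they were snoRNA:Psi18S-1820 at 57473 CPM per kb, snoRNA:Psi28S-291 at 25797 CPM per kb and snoRNA:Psi18S-1377d at 16518 CPM per kb. snoRNA:Psi18S-1820 ranked 25 in Isha RIP and 1 in input, and snoRNA:Psi28S-291 ranked 26 in Isha RIP and 2 in input. snoRNA:Psi28S-1192b ranked 11 in Isha RIP and 40 in input. Of the 10 most abundant guides of each group, 3 were the same.

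Split into 3 groups of about equal size by input level, the 34 guides of the highest level group (1009 to 57473 CPM per kb) held 3 called higher and 25 called lower in Isha RIP, with a median log2 fold change of -1.15. The 35 of the middle group (127 to 919 CPM per kb) held 3 higher and 26 lower, with a median of -0.56. The 35 of the lowest group (3.79 to 125 CPM per kb) held 7 higher and 8 lower, with a median of -0.18. Of the highest, middle and lowest groups 73.5%, 74.3% and 22.9% were called lower, where 30.4% of all tested genes were. In each group the share called higher was below the 27.0% of all tested genes. The groups were cut by input level, which also enters the fold change, so they are a description only. Across the 104 tested guides, log2 input level and log2 fold change had Pearson's r = -0.49 and Spearman's rho = -0.37, a description only, since input values enter both measures. Low guides also had fewer counts behind them, and SEs over all tested guides ranged from 0.0413 to 0.934 on the log2 scale.

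**Figure D3:**
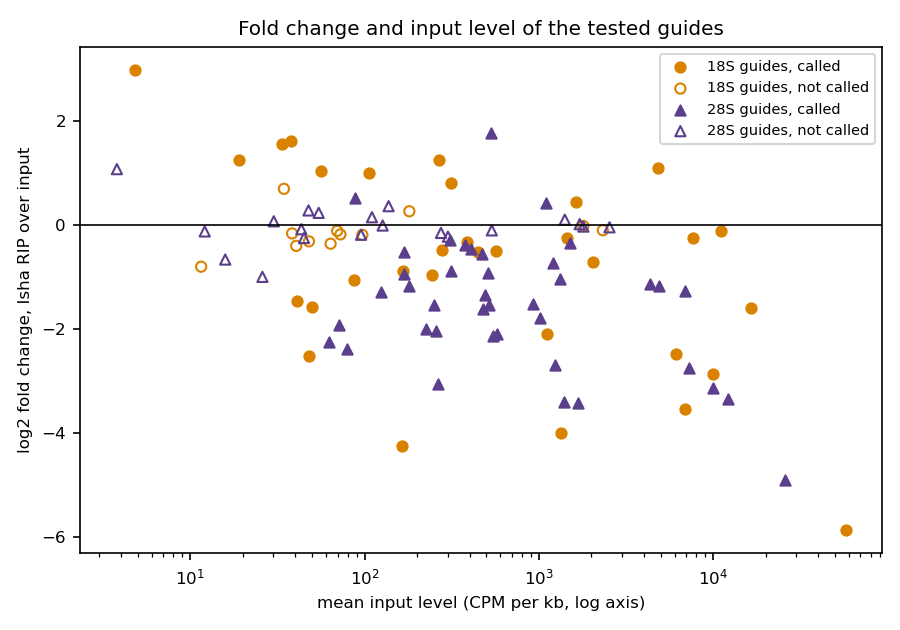
Log2 fold change (Isha RIP over input) of the 104 tested guides against their mean input level (CPM per kb, log axis); circles are 18S guides, triangles 28S guides, filled symbols called and open symbols not called by edgeR. The 2 lowest points, at -5.88 and -4.91, are the 2 guides with the highest input level.

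By target, the 44 tested 18S guides held 10 called higher (22.7%, where 27.0% of all tested genes were) and 22 called lower (50.0%, against 30.4%). Their median log2 fold change was -0.32. Of these 44 guides, 15 lay in the single host Arpc2, mostly at low level, and held 5 called higher, 3 lower and 7 not called. The 60 tested 28S guides held 3 called higher and 37 called lower, with a median of -0.90. The 18S guides held 0.709 ± 0.0220% of counts in Isha RIP and 1.91 ± 0.0586% in input, and the 28S guides 0.461 ± 0.00942% in Isha RIP and 1.63 ± 0.0455% in input (SD, n = 3 each). The ratio of 18S to 28S guide counts was 1.54 ± 0.0454 in Isha RIP and 1.18 ± 0.0226 in input, with no overlap between the groups (log2 difference 0.39, exact permutation p = 0.1, the smallest possible). Without the 3 most abundant guides, this log2 difference was 0.74.

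The 106 guides are named for 51 rRNA positions, of which 32 have 1 guide and 19 have several copies, 74 guides in all. Of the 32 single-copy guides, 2 were called higher (6.25%) and 25 lower (78.1%), with a median log2 fold change of -0.99. Of the 72 tested copies, 11 were called higher (15.3%) and 34 lower (47.2%), with a median of -0.34. Of all tested genes, 27.0% were called higher and 30.4% lower. Copies of a site can share sequence, and the sources used here do not give how reads that match several places were counted, so the split of counts between copies is uncertain.

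In some families every copy fell. The 4 copies of snoRNA:Psi28S-3405 in Hrb98DE had log2 fold changes of -2.03 to -3.05, the 3 copies of snoRNA:Psi28S-3327 in RpS4 of -1.63 to -2.13, and the 3 copies of snoRNA:Psi28S-1837 in CG10576 of -1.53 to -2.25. Other families held copies called in both directions. The 5 copies of snoRNA:Psi18S-1377 held 1 called higher and 4 called lower, with log2 fold changes between -4.00 and 0.43. The 4 copies of snoRNA:Psi18S-841 held 1 called higher, 2 called lower and 1 not called, between -2.52 and 1.10.

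The 11 copies of snoRNA:Psi18S-525 and the 7 of snoRNA:Psi18S-640 were mostly of low level. Of the 10 tested snoRNA:Psi18S-525 copies, 3 were called higher, 1 lower and 6 not called, and of the 6 tested snoRNA:Psi18S-640 copies 2 were called in each direction. The call for snoRNA:Psi18S-640e was lost without Isha RIP replicate 3 or input replicate 2 or 3 (edgeR adjusted p = 0.111, 0.0603 and 0.0682), and that for snoRNA:Psi18S-640b without Isha RIP replicate 1 or 3 or input replicate 2 or 3 (0.0735 to 0.101). The 1 lower call among the snoRNA:Psi18S-525 copies, that of snoRNA:Psi18S-525f, was lost without input replicate 3 (0.0828). The largest log2 fold change of all guides, 2.98 ± 0.602 for snoRNA:Psi18S-525j (edgeR adjusted p = 0.000183), rested on 68, 24 and 75 counts in Isha RIP and 17, 10 and 34 counts in input. Its 0.343 CPM in input replicate 2 was below the count filter's cutoff of 0.458 CPM. Its input libraries alone would not have passed that filter. It was thus tested by way of Isha RIP, where it is high, and its size and p-value carry that selection. snoRNA:Psi18S-525c (1.56) and snoRNA:Psi18S-640e (1.25) were the other 2 rises below a mean of 10 CPM, and the CPM of snoRNA:Psi18S-640e overlapped between groups.

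By position, 101 guides lay in 43 introns of 27 host genes, and no annotated gene enclosed the other 5. Several guides shared 1 intron in 16 introns, which held 74 guides. In 5 of these introns, some guides were called higher and others lower, not always next to each other. The introns described here were picked after their values were seen, for the size of the difference between their guides. Each count ratio below sets the guide of highest log2 fold change in the intron against that of lowest, among guides of at least 10 CPM. A difference in such a ratio between the groups therefore follows largely from this choice.

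Intron 4 of RpS5a, 846 bases long, carries 4 copies of snoRNA:Psi28S-1192. Its first guide, snoRNA:Psi28S-1192a, had 149, 135 and 167 CPM in Isha RIP, against 1077, 967 and 1002 CPM in input, a log2 fold change of -2.75. The next, snoRNA:Psi28S-1192b, was the largest rise above 10 CPM, given above. The ratio of their counts within a library, which no scaling between libraries can change, was 0.590, 0.518 and 0.706 in Isha RIP and 15.5, 12.9 and 13.1 in input. The more abundant copy was thus b in each Isha RIP library and a in each input library.

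Intron 2 of RpS7, 1371 bases long, carries 7 guides, of which 6 were called lower and 1 higher. From the upstream exon their log2 fold changes were -3.43 for snoRNA:Psi28S-2626, 0.43 for snoRNA:Psi18S-1377a, -0.26 for snoRNA:Psi18S-1377b, -4.00 for snoRNA:Psi18S-1377c, -1.59 for snoRNA:Psi18S-1377d, -2.47 for snoRNA:Psi18S-1377e and -2.69 for snoRNA:Psi28S-2149. The call for snoRNA:Psi18S-1377b was lost with DESeq2 (adjusted p = 0.130). The count ratio of snoRNA:Psi18S-1377a to snoRNA:Psi18S-1377c was 31.9, 27.7 and 24.0 in Isha RIP and 1.22, 1.14 and 1.36 in input. The 3 ratios of a group did not overlap with those of the other, and the uncertain split of counts between copies applies to them too.

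Count ratios of 2 guides also differed between the groups in 3 further introns, in 1 of them between copies of a site and in 2 between guides of different sites. In intron 2 of RpS5a, with 9 guides, the count ratio of snoRNA:Psi28S-1135a to snoRNA:Psi18S-1854a was 0.993, 1.51 and 1.19 in Isha RIP and 23.5, 37.2 and 22.4 in input. In intron 5 of RpS16 that of snoRNA:Psi28S-1175c to snoRNA:Psi28S-1175b was 0.579, 0.589 and 0.700 in Isha RIP and 5.18, 5.29 and 5.68 in input. In intron 3 of Hrb98DE, whose 6 guides were all called lower, that of snoRNA:Psi28S-3305b to snoRNA:Psi28S-3405d was 3.80, 4.92 and 3.34 in Isha RIP and 0.681, 1.04 and 0.488 in input. In each of the 3 the groups did not overlap. The call for snoRNA:Psi28S-3305b itself was lost without Isha RIP replicate 3 or input replicate 2 (edgeR adjusted p = 0.0721 and 0.0728) and at equal depth (0.0536).

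**Figure D4:**
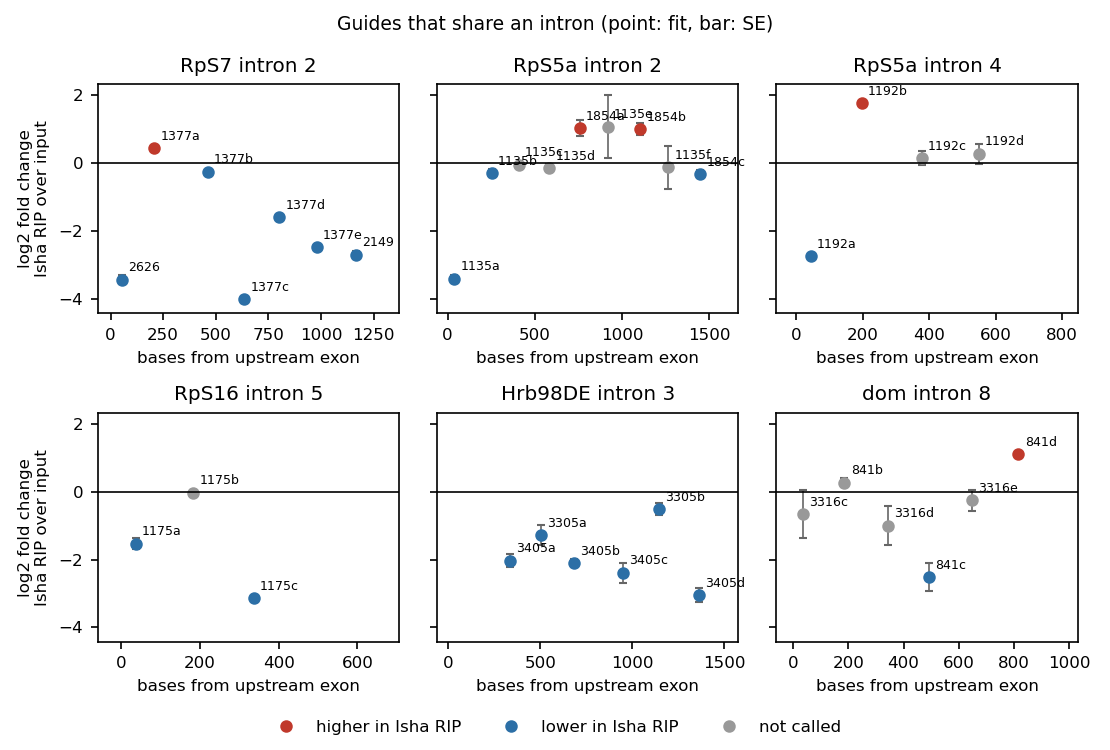
Log2 fold change (Isha RIP over input, bars SE) of tested guides in 6 introns that carry several, against distance from the upstream exon in bases; red points were called higher, blue lower and grey not called by edgeR, and labels give the rRNA position and copy letter. In RpS7 intron 2 neighbours range from -4.00 to 0.43, and in RpS5a intron 4 from -2.75 to 1.76.

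By place in a shared intron, the 16 first guides from the upstream exon held 1 called higher and 11 called lower, with a median log2 fold change of -1.26. The 40 tested inner guides held 7 higher and 15 lower, with a median of -0.24, and the 16 last guides 2 higher and 10 lower, with a median of -0.60. The 27 guides alone in their intron held 2 higher (7.41%) and 20 lower (74.1%), with a median of -0.92. Of all tested guides that share an intron, 13.9% were called higher and 50.0% lower, where 27.0% and 30.4% of all tested genes were. Guides of 1 intron share a transcript, so these counts are not of independent units.

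Changes of the host genes' exons and of their guides were then set side by side. Of the 27 host genes, 8 were called higher and 15 lower in Isha RIP, where 27.0% and 30.4% of all tested genes were. The 15 included all 13 ribosomal protein genes among the hosts. The call for the host Tudor-SN (lower) was lost without Isha RIP replicate 2 or input replicate 1 or 3 (edgeR adjusted p = 0.115, 0.0523 and 0.0893). The 44 tested guides in hosts called lower held 5 higher (11.4%) and 27 lower (61.4%), with a median log2 fold change of -0.44. The 32 in hosts called higher held 2 higher (6.25%) and 19 lower (59.4%), with a median of -0.61. These shares stand against the same 27.0% and 30.4% of all tested genes. Among those 32, snoRNA:Psi18S-531 was assigned to lncRNA:CR42491 (log2 fold change 0.17), the shorter of 2 genes that enclose it. The other is RpL22 (-2.31, called lower), and exons of these 2 genes overlap, so this host is uncertain. Over the 99 tested guides with a host, guide and host log2 fold changes had Pearson's r = 0.0016 and Spearman's rho = -0.0066, a description in which guides of 1 host share its value.

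Single hosts show how far guide and exons could differ. The exons of Nop60B averaged 576 ± 19.3 CPM in Isha RIP and 329 ± 2.83 CPM in input (SD, n = 3 each), a log2 fold change of 0.81, while its intronic guide snoRNA:Psi18S-1820 was the largest fall. Exons of Nop60B overlap other snoRNA genes, so its own count is less certain. The exons of Hrb98DE, an RNA-binding protein gene, had a log2 fold change of 0.42, while 6 of its 7 guides were called lower. Those of RpS5a had -1.52, with 3 of its 14 guides called higher and 5 lower. Of these 5, snoRNA:Psi28S-1135b (edgeR adjusted p = 0.0465) lost its call under 10 of 15 alternatives, among them the replicate block (0.0623) and leaving out Isha RIP replicate 2 or input replicate 1 or 2 (0.124, 0.185 and 0.137). The call for snoRNA:Psi18S-1854c was lost without Isha RIP replicate 1 or input replicate 1 or 3 (0.0750, 0.0745 and 0.125).

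**Figure D5:**
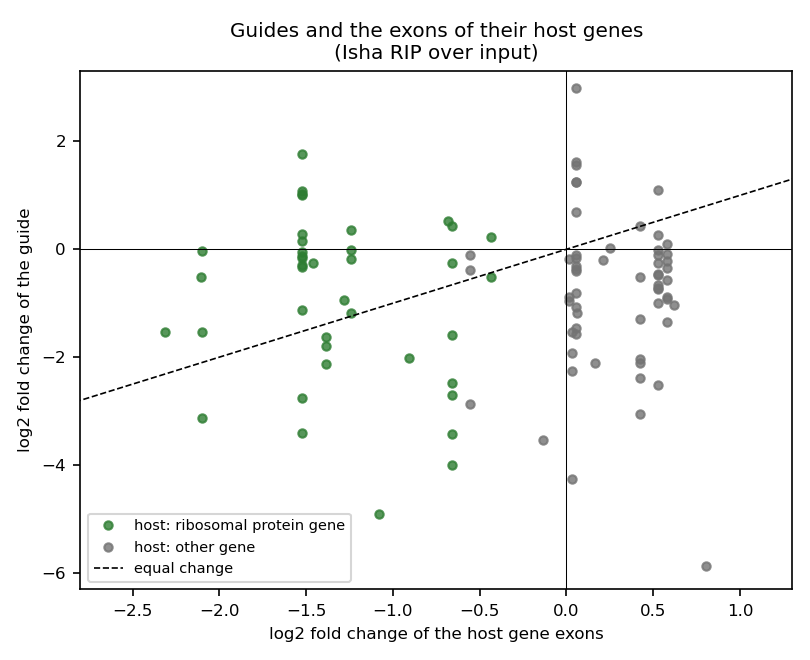
Log2 fold change (Isha RIP over input) of each of 99 guides against that of its host gene's exons; green points have a ribosomal protein gene as host, grey points another gene, and the dashed line marks equal change. Of these guides 63 lie below the line and 36 above it, with a median difference of -0.55.

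Protein genes listed for the H/ACA particle were read in the same fit. Of the 8, 5 were called higher and 2 lower in Isha RIP, where 27.0% and 30.4% of all tested genes were. Among the core proteins, the log2 fold changes of the mRNA were 0.81 for Nop60B, 0.61 for Nop10 and 0.52 for Gar1, and NHP2 was not called at -0.23 (edgeR adjusted p = 0.191). CG10341 (0.73) and CG10055 (0.68), which the files used here name with no role in the particle, were also called higher. Like those of Nop60B, exons of Nop10 and CG10341 overlap other genes, so their counts are less certain. The genes of the AAA+ ATPases rept and pont, which serve many complexes, had -0.62 and -0.40, and the call for pont (edgeR adjusted p = 0.0449) was lost under 10 of 15 alternative settings, among them leaving out Isha RIP replicate 1 or 3 or any 1 input replicate. Of the box C/D protein genes read beside them, Nop56 was called higher (1.21), and Fib (-1.43), hoip (-0.72) and nop5 (-0.45) lower. These values are of mRNA in nuclear extract, not of the proteins.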

How the data were processed

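RNA from 3 Isha RIP and 3 input libraries was sequenced as 50 bp single-end reads, per the labels' protocols. The authors deposited unnormalized counts of reads for each gene, beside its exon positions and length. Per the submitters' processing notes, the build was dm6 and the tools were HISAT2 2.2.1, featureCounts of Subread 2.0.0, cutadapt 2.9, Picard 2.22.2 and DESeq2 1.32.0 in R 4.1.0. How strand, duplicates and reads matching several places were handled is not given in the sources.

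Symbols came from a RefSeq gene table of the same build, and all 106 guides matched by exact chromosome, start and end (17170 genes in all, 16 more by identifier, 426 kept their identifiers). No guide's exon overlapped another gene's exon. A host was the shortest same-strand gene whose span held the guide. A read of unspliced host RNA within a guide's interval would be counted for the guide, and its share was not tested.

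Counts were filtered with filterByExpr (minimum count 10) and scaled with TMM (factors 0.986 to 1.01), and 11764 genes were tested with edgeR 4.0.16's quasi-likelihood test (R 4.3.3), with Benjamini-Hochberg adjustment over all of them and calls at 0.05. Of the 104 tested guides, 100 reached the filter's cutoff of 0.458 CPM in all 6 libraries. CPM and CPM per kb were computed here, and each SE is the size of the fitted log2 change divided by the root of its F statistic. limma 3.58.1 and DESeq2 1.42.0 served as alternatives. The workflow was tested on simulated data. Replicates differed by more than counting noise (chi-square per degree of freedom of 5.76 to 7.40 in Isha RIP and 11.3 to 14.0 in input). Groups and replicate numbers came from the sample titles, and same-numbered libraries did not deviate together (correlations of -0.0125, -0.0540 and -0.0116), so the numbers were not taken as pairs. Alternatives were other tools, scalings, filters, equal depth and leaving out each library.

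The members and the lists were chosen with earlier results of these data known. Values per library are given for guides among the 10 highest in input CPM, the 10 largest falls and rises at a mean of at least 10 CPM, copy families of at least 3 and the 3 of smallest change, by count or range where not in full. Guides outside this rule appear only as neighbours in an intron, as untested guides or where said to be chosen after their values were seen.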

Additional observations from a re-analysis of the deposited data

How the results depend on the processing

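Over 15 alternatives the number of guides called higher in Isha RIP was 10 to 15 (13 as reported) and the number called lower was 53 to 59 (59 as reported), and no called gene among those named changed sign in them, while 15 named genes that were not called did so in at least 1. The guides' median log2 fold change was -0.51 as reported. It was -0.47 with DESeq2, with TMM on coding genes and with a minimum count of 50, and -0.49 with limma-voom and with library totals. With libraries thinned to equal depth it was -0.43, and without genes that overlap others -0.53. These moves exceeded 0.0123, the SD of the median over the 3 Isha RIP libraries, each set against mean input. That SD leaves out the spread of input, and leaving out 1 library at a time gave medians of -0.53 to -0.45. The median was -0.72 over the 77 guides with a mean of at least 10 CPM. With the replicate number as a block, 13 guides were higher and 58 lower, the median was -0.52, and the call for snoRNA:Psi28S-1135b was lost. The log2 difference in share stayed at -1.60 (exact permutation over pairs, p = 0.25, the smallest value that 3 pairs allow). The share's log2 difference was -1.69 with coding genes as denominator, -0.88 without the 3 most abundant guides and -0.81 as a mean of log2(CPM + 1). Of the 27 host genes 23 were called, and 10 of the 13 that overlap no other gene, where fewer genes were tested. In the reported fit 57.4% of all tested genes were called. Among single genes, 1420 values under alternatives kept their side of the threshold, 60 lost a call and 5 gained one. Of the lost calls, 8 were of the host gene Tudor-SN and 10 of pont. Depth limits low guides in Isha RIP most, since its libraries were the shallower ones. The share tests could not reach 0.05 with 3 libraries a group.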

Other observations

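One guide varied widely within a group. snoRNA:Psi28S-2442b, in intron 4 of kra and chosen after its values were seen, had 281, 232 and 144 CPM in Isha RIP and 70.3, 253 and 285 CPM in input. Its coefficient of variation in input, 57.1%, was the largest among the 77 guides that averaged 10 CPM or more. The groups overlapped, and the log2 fold change was 0.10 ± 0.287 and not called by edgeR (adjusted p = 0.786). Its neighbour in the same intron, snoRNA:Psi28S-2442a, had 5.44, 7.93 and 4.02 CPM in Isha RIP and 6.32, 6.80 and 5.08 CPM in input, also overlapping.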
